A study of Mus musculus with 12 samples.

Results

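Of the genes of the blood vessel wall, 10 were followed in sorted cells of the fetal mouse ovary: 9 markers of endothelial cells (Cdh5, Pecam1, Emcn, Plvap, Kdr, Flt1, Tek, Tie1 and Egfl7) and Angpt1, the ligand of the Tek receptor. They were taken by name from a count table of 54532 genes, and all 10 were found. The embryos carried the transgene Tg(Pou5f1-EGFP)2Mnn, in which Pou5f1 (Oct4) regulatory sequence drives a green fluorescent protein (GFP) in germ cells. Dams were given saline alone or dexamethasone (dex), which activates the glucocorticoid receptor, at 10 µg for each g they weighed, by intraperitoneal injection once a day for 4 days, and ovaries were taken on the last of these days, E15.5. Germ cells (GFP-positive) were separated from somatic cells (GFP-negative) by flow cytometry, which gave 4 groups of 3 libraries, with replicate numbers 1 to 3 in each: soma saline, soma dex, germ saline and germ dex. The somatic fraction held every GFP-negative live cell of the ovary, so endothelial cells were one population among many in it, and each library was made from ovaries pooled over at least 2 litters.

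The endothelium lines all blood vessels, and its cells are held together by VE-cadherin (Cdh5) and PECAM-1. Vessel growth is driven by VEGF ligands through the receptor encoded by Kdr, while the receptor encoded by Flt1 binds VEGF tightly and signals weakly. In the angiopoietin system, Angpt1 is made mainly by perivascular and mesenchymal cells and activates Tek (TIE2) on the endothelium, which stabilises vessels, and Angpt2 can oppose it.

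The depth was 14658503 to 18245507 counts per library, and 3 counts, taken here as the floor of detection, corresponded to 0.169 to 0.201 CPM (the usual library-scaled count, with TMM factors). The germ cell markers Ddx4 and Pou5f1 had means of 604 and 19.0 CPM in germ saline against 1.11 and 0.0620 CPM in soma saline. All 4 known targets of the receptor that were examined (Fkbp5, Tsc22d3, Per1 and Zbtb16) rose with dex in somatic cells, and Per1 and Zbtb16 rose in germ cells. The labels named no batch, and p-values measure the spread between these libraries.

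The members lie on 7 mouse chromosomes, and promoter windows (250 bases before to 50 after a transcript start, RefSeq, GRCm38.p6) matched 6 of the 10 by symbol, in 8 windows. The windows of 4 genes are shown, for the marker that rose with dex in somatic cells (Emcn), the marker with the lowest dex to saline ratio there (Tie1), the most abundant marker (Kdr) and the marker that was higher in germ cells (Tek). Capitals mark the letters of an ETS core, AGGAAG (seen as CTTCCT on the other strand) or CCGGAA (on the other strand TTCCGG), both of which hold the GGAA that ETS factors, among them the endothelial factor ERG, bind. Each sequence reads 5′ to 3′ on the strand of its gene.
Emcn, chr3:137340828-137341127, plus strand: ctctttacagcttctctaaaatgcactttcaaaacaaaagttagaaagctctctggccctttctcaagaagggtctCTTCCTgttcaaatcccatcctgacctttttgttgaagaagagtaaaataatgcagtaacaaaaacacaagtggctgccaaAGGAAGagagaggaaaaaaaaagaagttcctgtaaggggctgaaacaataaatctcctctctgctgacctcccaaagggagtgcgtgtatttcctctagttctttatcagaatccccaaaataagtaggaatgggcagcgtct
Tie1, chr4:118489800-118490099, minus strand: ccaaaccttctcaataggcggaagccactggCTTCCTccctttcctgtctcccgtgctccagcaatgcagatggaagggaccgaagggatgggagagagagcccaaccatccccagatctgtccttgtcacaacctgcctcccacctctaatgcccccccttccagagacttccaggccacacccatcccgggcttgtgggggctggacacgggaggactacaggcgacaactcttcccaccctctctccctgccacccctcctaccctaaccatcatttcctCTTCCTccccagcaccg
Kdr, chr5:75978406-75978705, minus strand: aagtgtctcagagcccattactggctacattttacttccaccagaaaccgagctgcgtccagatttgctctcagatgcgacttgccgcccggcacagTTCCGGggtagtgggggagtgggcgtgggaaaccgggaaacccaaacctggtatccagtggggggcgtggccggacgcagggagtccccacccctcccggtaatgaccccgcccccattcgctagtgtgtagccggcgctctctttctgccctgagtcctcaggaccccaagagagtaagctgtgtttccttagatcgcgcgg
Tek, chr4:94739039-94739338, plus strand: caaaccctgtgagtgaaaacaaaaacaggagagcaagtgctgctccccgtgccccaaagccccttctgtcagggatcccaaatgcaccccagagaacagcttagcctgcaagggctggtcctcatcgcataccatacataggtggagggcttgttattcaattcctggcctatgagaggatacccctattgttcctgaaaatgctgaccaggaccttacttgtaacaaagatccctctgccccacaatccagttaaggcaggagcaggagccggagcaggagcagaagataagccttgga
Over both strands, AGGAAG occurred 2 times in the Emcn window and 2 times in the Tie1 window, CCGGAA occurred 1 time in the Kdr window, and the Tek window held neither. Over all 32851 promoter windows, 35.4% held AGGAAG and 14.9% held CCGGAA. The paired half-sites of the glucocorticoid receptor, ACANNNTGT, matched none of the 8 windows and 6.85% of all windows. These are matches of letters in a short window and not bound sites.

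The first question was where the 10 genes are expressed without dex. To compare genes with each other, the deposited FPKM was used, which divides by gene length. In soma saline the order was Kdr (17.4 ± 0.375 FPKM, SD, n = 3), Cdh5 (13.3 ± 1.11), Plvap (11.5 ± 1.76), Pecam1 (6.74 ± 0.893), Tie1 (6.31 ± 1.48), Egfl7 (6.28 ± 0.880), Angpt1 (3.56 ± 0.292), Emcn (3.54 ± 0.551), Tek (2.55 ± 0.347) and Flt1 (0.971 ± 0.134). Cdh5 and Plvap were within their spread of each other, as were Pecam1, Tie1 and Egfl7, and as were Angpt1 and Emcn. Germ saline had another order, headed by Tek (5.89 ± 0.518 FPKM), followed by Cdh5 (2.14 ± 0.515), Plvap (1.88 ± 0.0851) and Pecam1 (1.54 ± 0.656), with the other 6 members at 0.308 FPKM or less.

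All 10 members differed between germ saline and soma saline, where 86.1% of all genes tested did, so the count itself says little about them. In germ cells 9 were lower and 1, Tek, was higher, against 42.9% and 43.1% of all genes, and the libraries of the 2 cell types did not overlap for any of the 10, as for 43.6% of all genes above and 43.6% below. Tek (chromosome 4, 94739289 to 94874976, plus strand, GRCm38), the angiopoietin receptor, was at 28.7, 29.4 and 24.5 CPM in germ saline and at 10.4, 13.2 and 13.6 CPM in soma saline. Every germ cell library lay above every somatic one, a log2 difference of 1.16 (SE 0.136, edgeR adjusted p = 1.32e-06, adjusted by the Benjamini-Hochberg, BH, method over all genes tested and called at 0.05 or less), which held its direction and its call in 11 of 11 other settings. Its partner receptor Tie1 went the other way, at 0.355 ± 0.189 CPM in germ saline and 32.0 ± 7.53 CPM in soma saline (log2 difference -6.44, SE 0.290, edgeR adjusted p = 1.78e-11). Angpt1 was at 1.36, 1.17 and 2.23 CPM in germ saline, all above the floor of detection, and at 19.1 ± 1.61 CPM in soma saline (SD, n = 3, log2 difference -3.57, SE 0.223, edgeR adjusted p = 8.62e-10).

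The 9 markers fell into separate ranges when the germ cell level was given as a percent of the somatic level of the same treatment. Kdr, Tie1, Egfl7 and Emcn were at 1.62%, 1.11%, 1.96% and 1.77% in saline. The Emcn value rested mostly on germ saline replicate 2, with 16 counts beside 0 and 2, and ranged from 0% to 4.73% over the libraries. Cdh5, Plvap, Pecam1 and Flt1, in contrast, were at 15.47%, 15.7%, 21.9% and 22.8%, and Tek was at 222%. As a reference, 27 other endothelial genes had a median of 3.42% in germ saline with a range of 1.12% to 53.7%, and all 27 were lower in germ cells than in somatic cells. The largest log2 differences of that list were those of Sox17, Robo4, Cldn5 and Aplnr, at -6.39, -5.72, -5.57 and -5.55. Markers of stromal cells and of pericytes and smooth muscle had medians of 0.619% and 2.03%, and erythroid and surface epithelium markers 0.383% and 0.759%. Higher medians were those of macrophage, lymphatic and pregranulosa markers, at 4.76%, 6.07% and 8.93%, with single genes up to 43.4%, 54.5% and 39.9%. The 2 megakaryocyte genes compared had a median of 24.2%. How much of each level came from somatic cells or their RNA in the germ cell sort was not tested. Since Tek was higher in germ cells than in somatic cells, it marks endothelium here at most within the somatic fraction.

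**Figure D1:**
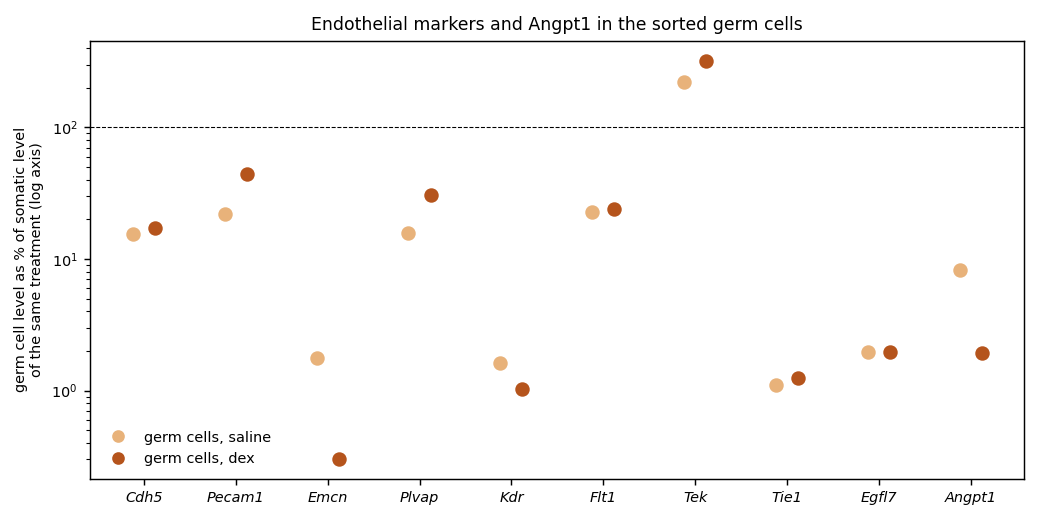
Mean CPM in germ cells as a percent of the mean CPM in somatic cells of the same treatment (log axis, dashed line at equal levels), for each gene in saline and dex. Kdr, Tie1, Egfl7 and Emcn lay at 0.303% to 1.96%, Cdh5, Pecam1, Plvap and Flt1 at 15.47% to 44.4%, Tek above the line, and Angpt1 went from 8.29% in saline to 1.93% in dex.

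The second question was what dex did to these genes in somatic cells. Dex changed 6 of the 10 members, 5 lower and 1 higher, where 8.18% of 16556 genes tested were called, 3.36% lower and 4.81% higher. The members were chosen with earlier results of these data known, so the shares here and in the later comparisons are not tests of the set. Of the 6, only Angpt1 kept its call in all 11 other settings. Angpt1, Tie1, Plvap, Cdh5 and Egfl7 fell, Emcn rose, and Tek, Pecam1, Kdr and Flt1 were not called. The median log2 fold change of the 10 was -0.45 and that of all genes tested 1e-04. In these bulk libraries, fewer cells of a type and less RNA per cell cannot be told apart.

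Angpt1 (ENSMUSG00000022309, chromosome 15, 42424723 to 42676977, minus strand, GRCm38) had the largest change of the 10 in somatic cells. Its level was 17.4, 20.7 and 19.3 CPM in soma saline and 11.4, 10.4 and 8.10 CPM in soma dex. All 3 dex libraries lay below all 3 saline libraries, and the ranges were far apart. The log2 fold change was -0.95 (SE 0.149, edgeR adjusted p = 0.00122), the 755th largest in size of all genes tested, and Angpt1 was called in 11 of 11 other settings, with log2 fold changes from -1.05 to -0.82.

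The Tie receptors bind angiopoietins directly (TEK) or modulate that signal (TIE1, which binds none by itself). Tie1 (chromosome 4, 118471191 to 118490061, minus strand) was at 24.7, 31.6 and 39.7 CPM in soma saline and at 21.3, 20.6 and 19.5 CPM in soma dex. The dex libraries were all lower and much closer together, and the log2 fold change was -0.65 (SE 0.147, edgeR adjusted p = 0.0148). The call was lost without saline replicate 2 (BH-adjusted p = 0.0529) or saline replicate 3 (0.0838). Tek went from 10.4, 13.2 and 13.6 CPM in saline to 9.07, 8.97 and 9.29 CPM in dex. These groups did not overlap either, but the test did not call Tek (log2 change -0.45, SE 0.152, edgeR adjusted p = 0.0946), and 11.9% of all genes tested had dex libraries that all lay below the saline ones.

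Of the VEGF receptors, neither was called. Kdr (chromosome 5, 75932827 to 75978458, minus strand), the main signalling receptor for VEGF on endothelial cells, was at 160, 160 and 166 CPM in soma saline and at 151, 167 and 158 CPM in soma dex. Its log2 fold change was -0.04 (SE 0.0634, edgeR adjusted p = 0.786), and the groups overlapped. With 2484 to 2959 counts per somatic library, Kdr was the most deeply counted of the 10 and had the smallest SE. Flt1 (chromosome 5, 147561604 to 147726011, minus strand) was at 12.2, 12.7 and 15.7 CPM in saline and at 13.5, 16.6 and 11.1 CPM in dex, with overlapping groups (log2 change 0.02, SE 0.168, edgeR adjusted p = 0.972).

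**Figure D2:**
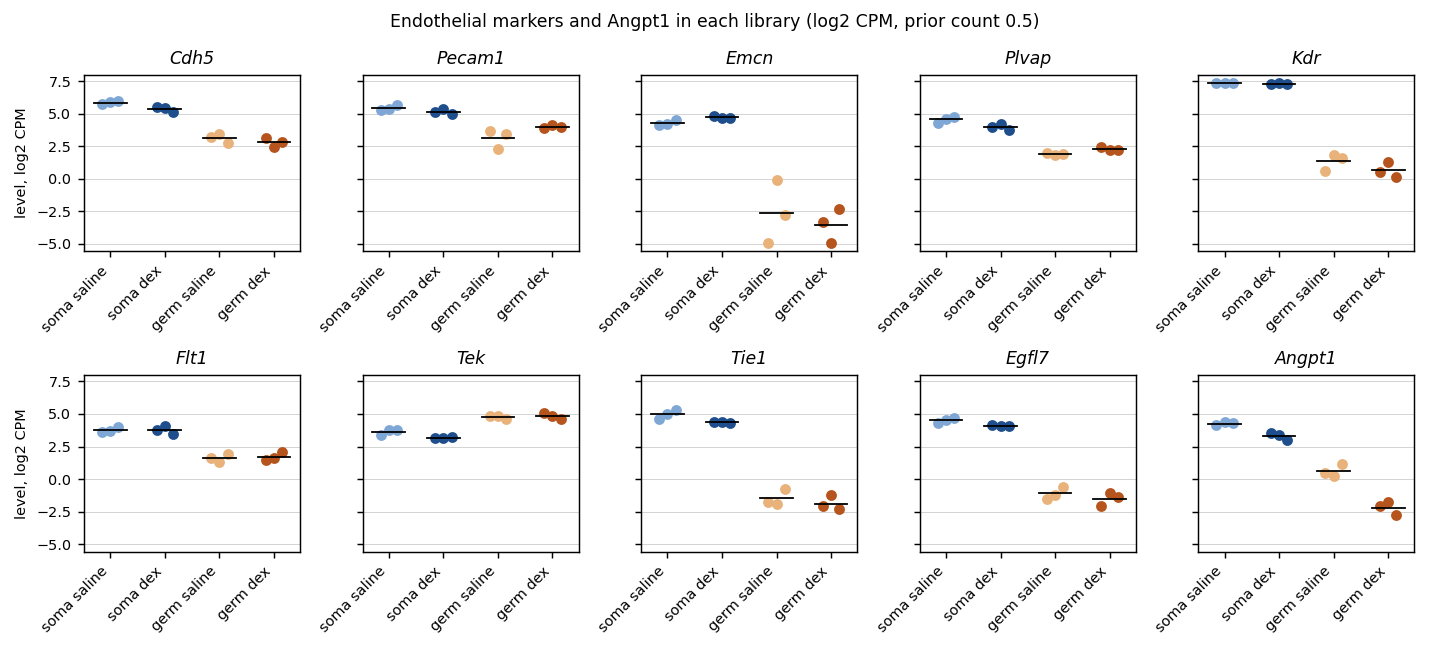
Level of each gene in each of the 12 libraries, as log2 CPM with a prior count of 0.5 (1 panel per gene, points are libraries and bars group means). In somatic cells Angpt1 falls and Emcn rises with no overlap while the groups overlap for Kdr, and in germ cells Angpt1 drops from between 0.26 and 1.18 to between -2.78 and -1.78.

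The junction and surface markers moved in different directions. Cdh5 (chromosome 8, 104101625 to 104144511, plus strand), the adhesion molecule of endothelial junctions, was at 52.3, 59.3 and 61.7 CPM in soma saline and at 45.2, 43.1 and 34.6 CPM in soma dex. All dex libraries were lower, with a log2 fold change of -0.50 (SE 0.103, edgeR adjusted p = 0.00862), and the call was lost without saline replicate 3 (BH-adjusted p = 0.0597) and in 1 fit over all 12 libraries (0.0857). Plvap (chromosome 8, 71497765 to 71511752, minus strand), which forms the diaphragms of endothelial fenestrae and caveolae, went from 19.9, 23.8 and 27.2 CPM to 15.3, 18.5 and 13.3 CPM. Again no dex library reached a saline library, and the log2 fold change was -0.59 (SE 0.151, edgeR adjusted p = 0.0276), a call lost when dex replicate 1 (BH-adjusted p = 0.0748), saline replicate 2 (0.0931) or saline replicate 3 (0.148) was left out.

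Emcn (ENSMUSG00000054690, chromosome 3, 137341067 to 137432185, plus strand) encodes endomucin, a sialoglycoprotein of venous and capillary endothelium. It was the only one of the 10 that rose, from 17.7, 18.3 and 23.3 CPM in soma saline to 28.6, 26.0 and 25.4 CPM in soma dex. All dex libraries were above all saline libraries, as for 13.5% of all genes tested. The log2 fold change was 0.43 (SE 0.123, edgeR adjusted p = 0.0496), close to the threshold. Its log2 fold change was above 0 in all 11 other settings, but Emcn was called in 5 of them, and the call was lost without dex replicate 1 or 2 or saline replicate 1 or 2 (BH-adjusted p = 0.146, 0.119, 0.192 and 0.203). With RLE size factors in place of TMM the BH-adjusted p was 0.0515, and in 1 fit over all 12 libraries it was 0.456.

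Pecam1 (chromosome 11, 106654217 to 106750628, minus strand), which endothelial cells share with platelets and some leukocytes, was at 39.0, 41.2 and 49.8 CPM in soma saline and at 35.3, 40.6 and 32.0 CPM in soma dex. The groups overlapped, and the change was not called (log2 change -0.27, SE 0.114, edgeR adjusted p = 0.190). Egfl7 (chromosome 2, 26580014 to 26593120, plus strand), a secreted protein of the vascular matrix, fell from 19.9, 23.3 and 26.4 CPM to 17.9, 16.7 and 16.5 CPM. No dex library reached a saline library, and the log2 fold change was -0.45 (SE 0.125, edgeR adjusted p = 0.0421). Its call was lost without dex replicate 1, 2 or 3 or saline replicate 2 or 3 (BH-adjusted p = 0.0695, 0.108, 0.0570, 0.131 and 0.192), in 1 fit over all 12 libraries (0.149) and with the replicate number as a block (0.0518). Exons of Egfl7 overlap those of 4 other genes, of which only Agpat2, on the opposite strand, had counts (227 to 294 in soma saline and 246 to 269 in soma dex), so reads shared by the 2 genes cannot be told apart without the strand setting.

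**Figure D3:**
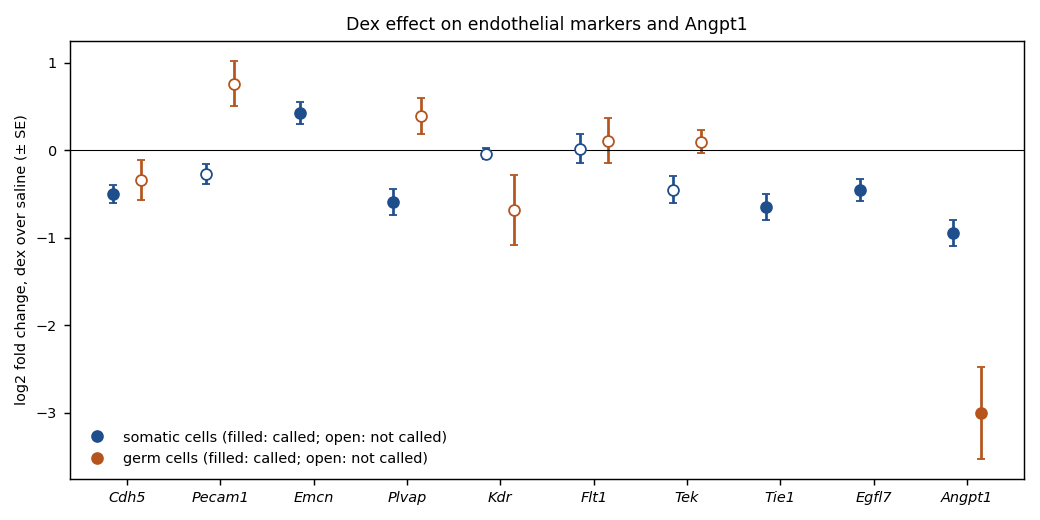
Log2 fold change of dex over saline with its SE for each gene, in somatic cells (blue) and germ cells (orange), with filled points for genes called by edgeR. In somatic cells 5 genes lie below 0 and Emcn above it as filled points, and in germ cells only Angpt1, at -3.00, is filled (Emcn, Tie1 and Egfl7 were too low there to be tested).

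The mean log2 CPM over the 9 markers was 4.75 to 5.12 in soma saline and 4.54 to 4.75 in soma dex, a difference of -0.27, and the ranges met at their edge (4.749 in saline replicate 1 and 4.747 in dex replicate 2). It was -0.18 without saline replicate 3. Each marker was then set against the mean of the other endothelial markers in its own library. Angpt1, which is not one of the markers, was set against the mean of all 9. On this scale Emcn went from between -0.82 and -0.65 in saline to between -0.05 and 0.17 in dex, a shift of 0.80. Angpt1 shifted by -0.68, Tie1 by -0.39, Plvap by -0.36, Cdh5 by -0.26 and Tek and Egfl7 by -0.19 each. Kdr and Flt1 shifted by 0.26 and 0.31 and Pecam1 by 0.00.

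**Figure D4:**
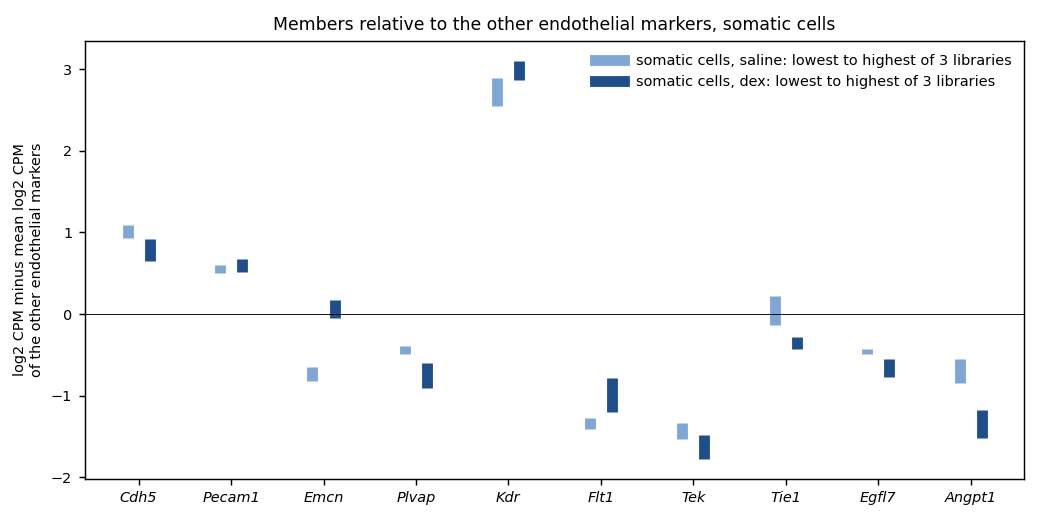
Log2 CPM of each gene minus the mean log2 CPM of the other endothelial markers in the same somatic library, with bars from the lowest to the highest of 3 libraries for saline (light) and dex (dark). The bars of Emcn and Angpt1 move furthest and in opposite directions, by 0.80 and -0.68.

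Other genes of the angiopoietin and VEGF pathways, from lists made for this purpose, were examined for the company that Angpt1 and the receptors kept. Of 6 other angiopoietin-Tie genes, 5 were tested in somatic cells, with 2 higher and 1 lower (median log2 fold change 0.11). Angpt2, which can antagonise Angpt1 at TEK, rose from 8.61 ± 0.749 to 15.1 ± 1.37 CPM (SD, n = 3, log2 change 0.80, SE 0.143, edgeR adjusted p = 0.00329). Angpt4, the mouse counterpart of a further TEK ligand, rose from 2.48 ± 0.959 to 7.26 ± 1.04 CPM (log2 change 1.54, SE 0.280, edgeR adjusted p = 0.00375). Dok2, an adaptor that docks on TEK, fell from 7.497 ± 0.668 to 4.25 ± 0.561 CPM (log2 change -0.82, SE 0.196, edgeR adjusted p = 0.0196). Dok2 is also expressed in haematopoietic cells. Ptprb, the phosphatase that removes phosphate from TEK, and Svep1, a matrix protein that binds TIE1, had log2 fold changes of -0.28 and 0.11 and were not called (edgeR adjusted p = 0.257 and 0.574), and Bmx was too low to be tested. Among the 3 angiopoietins, then, Angpt1 fell while Angpt2 and Angpt4 rose, and in FPKM the soma means went from 3.56, 2.26 and 1.03 in saline to 1.85, 3.94 and 3.00 in dex.

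Of 8 other VEGF pathway genes, 2 rose and 2 fell in somatic cells (median log2 fold change -0.02). Vegfa, the main ligand of KDR and FLT1, was at 179 ± 5.46 CPM in soma saline and 184 ± 8.97 CPM in soma dex (SD, n = 3, log2 change 0.03, SE 0.0604, edgeR adjusted p = 0.809). Vegfd rose from 21.7 ± 2.14 to 48.7 ± 13.1 CPM (log2 change 1.16, SE 0.167, edgeR adjusted p = 6.02e-04). Vegfc, like Vegfd a ligand of the lymphatic receptor FLT4, fell from 11.6 ± 1.45 to 7.12 ± 1.24 CPM (log2 change -0.70, SE 0.177, edgeR adjusted p = 0.0264). The co-receptors also parted, Nrp1 at 0.45 and Nrp2 at -0.45 on the log2 scale (edgeR adjusted p = 0.00555 and 0.0166). Vegfb, Pgf and Flt4 were not called, with log2 fold changes of -0.08, 0.04 and -0.53.

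Of 27 endothelial genes outside the 10, 2 rose and 3 fell, with a median log2 fold change of -0.24. Cd34, shared with progenitor and stromal cells, and Acvrl1, a receptor for BMP ligands that was named after its values were seen, rose by 0.88 and 0.57 on the log2 scale (edgeR adjusted p = 5.08e-04 and 6.15e-04). Nos3, the endothelial nitric oxide synthase, and Aplnr, the apelin receptor, had log2 fold changes of -0.81 and -0.70 (edgeR adjusted p = 0.0439 and 0.0235), and Mmrn2, a matrix protein, -0.64 (0.0468). The gene of this list with the highest level, Podxl, was at 645 CPM in soma saline and 585 CPM in soma dex and is also made by some epithelial cells. Among 7 Notch pathway genes, Jag1 and Hey1 fell, at -0.61 and -0.53 (edgeR adjusted p = 4.14e-04 and 0.0275), and the tip cell ligand Dll4 was at -0.58 and just outside the threshold (0.0511). The highest level of that list was that of Jag2, at 154 CPM in germ saline and 11.8 CPM in soma saline.

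Markers of other cells in the somatic fraction moved beside the vessel genes. Macrophage markers fell, 6 of 11 called and all 11 with a negative log2 fold change (median -0.87), and their summed level was 218 to 289 CPM in soma saline and 62.4 to 154 CPM in soma dex, with dex replicate 1 the lowest. Each of the 11 was above 0 in every somatic library. Fcgr1 and Adgre1 had log2 fold changes of -1.84 and -1.78 (edgeR adjusted p = 0.00848 and 0.00346), and Cx3cr1 and Csf1r -1.38 and -1.31 (0.00198 and 0.00634). Of 4 genes in a megakaryocyte list, 2 were tested. Pf4, a platelet and macrophage gene, was at -1.52 (edgeR adjusted p = 0.00846), and Itga2b was at 0.23 and not called (0.632). Mrc1, the macrophage marker of highest level, was at 72.6 CPM in soma saline and 34.4 CPM in soma dex. Of 12 pericyte and smooth muscle genes, Cspg4, Kcnj8 and Abcc9 rose, by 1.06, 0.77 and 0.55 on the log2 scale, and Mcam had a log2 fold change of -0.46, with summed levels of 1098 to 1137 CPM in saline and 1093 to 1325 CPM in dex. The highest of these 12, Pdgfrb, was at 359 CPM in soma saline and 360 CPM in soma dex. The germ cell marker Dazl, an RNA-binding protein, had 16 to 21 counts in a soma saline library and 212 to 227 in a soma dex library (log2 change 3.43, edgeR adjusted p = 2.92e-07). It was the only one called of 4 germ cell markers tested there, and the summed level of that list was 2.90 to 6.07 CPM in soma saline and 15.4 to 20.6 CPM in soma dex. Most of that rise was Dazl itself, with means of 1.175 CPM in soma saline and 12.77 CPM in soma dex, beside mean sums of 4.649 and 18.49 CPM. Pdgfra was the only one called of 8 stromal markers (0.62, edgeR adjusted p = 1.01e-04), Wnt4 of 8 pregranulosa markers (-0.24, 0.0373) and Hba-x of 9 erythroid genes (1.08, 0.0170). None of 3 lymphatic and 3 surface epithelium markers was called. The genes of highest level in these 5 lists were Col1a1, Kitl, Hba-a1, Pdpn and Upk3b, at 7407, 216, 5753, 30.2 and 167 CPM in soma saline and 7407, 193, 5046, 33.7 and 150 CPM in soma dex. Of these, Hba-a1 varied widely between libraries, from 4128 to 7022 CPM in soma saline and from 1871 to 9144 CPM in soma dex. The summed level of the 9 markers was 357 to 424 CPM in soma saline and 319 to 358 CPM in soma dex. The part of macrophages, mural cells and germ cells in the changes of the 10 members was not tested.

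**Figure D5:**
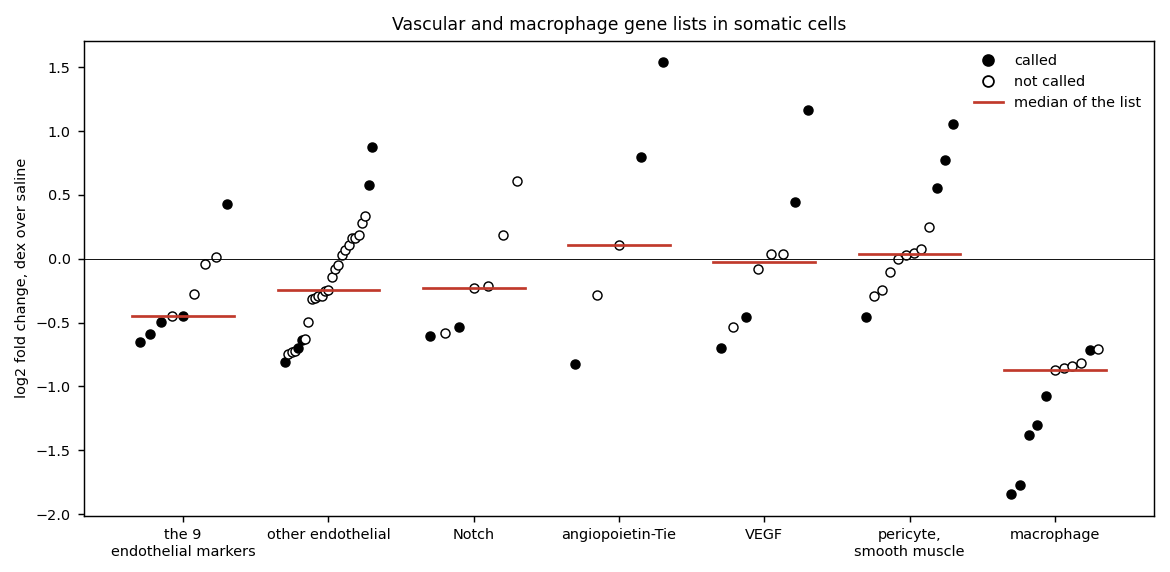
Log2 fold change of dex over saline in somatic cells for each tested gene of 7 lists (filled points are called by edgeR, red lines are list medians). The 9 markers and the macrophage list have medians of -0.45 and -0.87. The macrophage and Notch lists hold called genes only below 0, and the other lists, the 9 markers among them, on both sides of 0.

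The third question was whether dex changed the members in germ cells. Of the 10, 7 had enough counts to be tested, and 1, Angpt1, was called as lower, where 0.208% of 16857 genes tested were called, 0.119% lower and 0.089% higher. Angpt1 had 21, 20 and 39 counts in germ saline and 3, 4 and 2 counts in germ dex, or 1.36, 1.17 and 2.23 CPM against 0.201, 0.259 and 0.117 CPM. All dex libraries lay below all saline libraries, as for 9.4% of all genes tested, and the dex libraries were about at the floor of detection. The log2 fold change was -3.00 (SE 0.525, edgeR adjusted p = 0.049), the 8th largest in size among genes tested. From the pooled counts, 80 in saline and 9 in dex, saline was 8.43 times dex (exact 95% interval 4.23 to 19.1, counting error only).

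The Angpt1 call in germ cells rested on a BH-adjusted p near the threshold. It was lost without any 1 library, at 0.0705, 0.172 and 0.189 without germ dex replicates 1, 2 and 3 and at 0.0697, 0.0750 and 0.264 without germ saline replicates 1, 2 and 3, with log2 fold changes from -3.28 to -2.67, and with the replicate number as a block (0.0713). Exons of Angpt1 also overlap Gm17473, an antisense gene on the plus strand. Gm17473 had 4, 12 and 8 counts in germ saline and 0, 0 and 0 in germ dex, which allows up to 3 counts a library, whereas it had 3 counts in all of soma saline beside 915 of Angpt1. In germ saline it thus had 24 counts beside 80 of Angpt1, and since the strand setting of the counting is not given in the sources used here, reads from the 2 genes cannot be told apart.

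None of the 6 endothelial markers tested in germ cells was called. Pecam1 was at 12.7, 4.96 and 10.8 CPM in germ saline and at 14.95, 17.6 and 15.4 CPM in germ dex. The dex libraries were all higher, as for 7.96% of all genes tested, and saline replicate 2 was the lowest by far (log2 change 0.76, SE 0.262, edgeR adjusted p = 0.302). Without the low-count filter Pecam1 was called, at 0.75 (BH-adjusted p = 0.00224). Plvap was at 3.88, 3.56 and 3.66 CPM in saline and 5.50, 4.53 and 4.50 CPM in dex, again without overlap (log2 change 0.39, SE 0.205, edgeR adjusted p = 0.501). Cdh5, Kdr, Tek and Flt1 overlapped between the groups, with log2 fold changes of -0.34, -0.69, 0.10 and 0.11 and BH-adjusted p-values from edgeR of 0.601, 0.542, 0.808 and 0.904. Tie1 had 3 to 10 counts in a germ cell library and Egfl7 3 to 11, and Emcn had 0 to 3 in all but germ saline replicate 2, which had 16. These 3 did not pass the low-count filter in this comparison and were not tested. Germ cells of the saline group held Tek at 27.5 ± 2.63 CPM and those of the dex group at 29.3 ± 4.78 CPM (SD, n = 3). In the lists, none of the 3 angiopoietin-Tie, 7 VEGF, 7 Notch and 15 other endothelial genes tested was called in germ cells.

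A test of the difference between the dex effects in germ cells and somatic cells, fitted on all 12 libraries, called 1 of the 10 members, where 1.62% of 19390 genes tested were called, 1.13% with a negative and 0.49% with a positive difference. For Angpt1 the difference was -2.08 on the log2 scale (SE 0.485, edgeR adjusted p = 0.0393), with the larger fall in germ cells. It kept its direction in 16 of 16 other settings and its call in 6. Leaving out germ dex replicate 1, 2 or 3 gave BH-adjusted p-values of 0.0670, 0.0742 and 0.134, leaving out germ saline replicate 3 gave 0.109, leaving out soma dex replicate 1 or 2 gave 0.0779 and 0.0780, and leaving out soma saline replicate 1, 2 or 3 gave 0.0737, 0.0704 and 0.0882. The call was also lost with the replicate number as a block (BH-adjusted p = 0.0620). Plvap and Pecam1, lower or not called in somatic cells and higher in every germ dex library, had differences of 0.98 and 1.03 (SE 0.249 and 0.301, edgeR adjusted p = 0.0614 and 0.111). Both were called with DESeq2 (BH-adjusted p = 0.0211 and 0.0488) and without the low-count filter (0.0271 and 2.98e-05), Plvap also without soma dex replicate 2 (0.0450) and Pecam1 without germ saline replicate 1 (0.0372). Without the filter Emcn, with 0 to 16 counts in a germ cell library, was called too (-2.43, BH-adjusted p = 0.0346). The other 7 members had BH-adjusted p-values of 0.216 or more. Among the pathway genes, Angpt2 and Vegfd had differences of -1.29 and -1.49 and Dok2 and Jag1 of 1.19 and 0.63 (edgeR adjusted p = 0.0334, 0.0184, 0.0207 and 0.0398), and the germ cell marker Dazl of -3.56 (1.91e-10).

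Genes whose profile over the 12 libraries was nearest to that of Angpt1 or Cdh5 were looked up among 16150 genes, by the root-mean-square distance between log2 CPM values centred on each gene's mean. The 5 nearest to Angpt1 were Ppp1r16b, Calb1, Erg, Dll4 and Palmd, at distances of 0.58 to 0.66. Erg, an ETS factor of endothelial cells, had means of 7.65 and 4.61 CPM in soma saline and soma dex and of 0.630 and 0.173 CPM in germ saline and germ dex, and Dll4 had 12.3, 8.29, 0.970 and 0.364 CPM. With dex, Erg was not called in somatic cells (edgeR adjusted p = 0.0765). It was too low to be tested in germ cells, with 1 to 4 counts in a germ dex library. Dll4 was called in neither somatic nor germ cells (edgeR adjusted p = 0.0511 and 0.359). Calb1, which encodes the calcium buffer calbindin, had 26.8, 16.1, 2.44 and 0.571 CPM, and Ppp1r16b had 7.70, 5.15, 0.851 and 0.214 CPM. Palmd, in contrast, was nearly level in somatic cells, at 5.08 and 5.02 CPM in soma saline and soma dex. Its means in germ saline and germ dex were low, at 0.332 and 0.0655 CPM. Nearest to Cdh5 were Ccdc114, Fndc4, Ntmt1, Snhg5 and Acvr1, at 0.222 to 0.244, none of them in an endothelial list.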

How the data were processed

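RNA of 12 libraries (poly-A selected, random hexamers, read pairs) was aligned by the authors to mm10 with HISAT2 2.0.5 and counted per gene with featureCounts 1.5.0-p3, versions per the submitters' processing notes. The strand setting and the treatment of reads with several positions are not given in the sources used here. The authors deposited raw counts for 54532 genes and FPKM values scaled by gene length and depth. Their own DESeq2 comparisons (fold changes and p-values) were not used. Counts were tested with edgeR 4.0.16 in R 4.3.3 (TMM, filterByExpr, quasi-likelihood test) over all genes, and a gene was called at a Benjamini-Hochberg (BH) adjusted p of at most 0.05. SEs are those implied by the F statistic. CPM is the count over the TMM-scaled library size, and log2 CPM has a prior count of 0.5. Gene positions were the same in the deposited table and in GENCODE vM21. Alternatives were RLE size factors, no low-count filter, DESeq2 1.42.0 (the study's tool), the replicate number as a block, 1 fit over all libraries and each library left out. The method was tested on simulated counts first. Members and gene lists were chosen with earlier results of these data known. Named genes are the members, the pathway genes whose mean reached 1 CPM in any group (Bmx did not), up to 4 called genes per test of each other list described (the largest changes) and its gene of highest level, the check genes, and the 5 nearest profiles of Angpt1 and Cdh5. Dll4, Acvrl1 and Itga2b were named beside their lists after their values were seen.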

Additional observations from a re-analysis of the deposited data

Results flagged for a closer look

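Angpt1 was singled out because the effect of dex in germ cells and in somatic cells differed by a test of the difference itself, at -2.08 on the log2 scale (SE 0.485, edgeR BH-adjusted p = 0.0393, from 0.00604 to 0.134 over the other settings). Dex was below saline in all 3 germ cell libraries and in all 3 somatic libraries, with log2 fold changes of -3.00 and -0.95. The germ cell side rests on 80 counts in saline and 9 in dex.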

How the results depend on the processing

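Over the members and settings, 389 values kept direction and side of the threshold, 37 lost their call, 8 gained one and 23 changed sign, none of the 23 called. In somatic cells the members called went from 6 to 3 and all genes called from 1354 to 803 with 1 fit over all 12 libraries, and to 2 to 5 and 754 to 1881 with 1 library left out. In germ cells, 1 member and 35 genes became 2 and 420 without the low-count filter, 158 genes with DESeq2, 64 with 1 fit over all libraries, and 0 members and 17 to 81 genes with a library left out. For the difference, 1 member and 314 genes became 4 and 727 without the filter, 3 and 620 with DESeq2, and 0 to 2 and 143 to 384 with a library left out. The cause was not tested. In saline, all 10 members were called in every setting run. The dex minus saline difference in the mean of the 9 markers ranged from -0.36 to -0.18 in somatic cells with a library left out. In germ cells it was -0.15 with all libraries, beside a pooled SD of 0.21, and ranged from -0.32 to -0.05 with a library left out. The germ cell mean includes Emcn, Tie1 and Egfl7, which were too low to be tested there. Of the 6 markers tested in germ cells, 4 had a log2 fold change above 0, and the median was 0.10. Signs changed with a library left out for Flt1 in somatic cells (-0.16 to 0.15) and germ cells (-0.091 to 0.265), Tek in germ cells (-0.0411 to 0.2005), and in the difference for Cdh5 (-0.02 to 0.33), Tie1 (-0.25 to 0.70), Egfl7 (-0.23 to 0.33) and Flt1 (-0.11 to 0.26). The difference of Egfl7 was -0.0106 with DESeq2.

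The main tests did not treat the replicate numbers as pairs, since the labels name nothing shared by a number. Between treatments, deviations of same-numbered libraries correlated at -0.023 to 0.024 in somatic cells and 0.016 to 0.097 in germ cells. Between the cell types, same-numbered libraries of a treatment correlated at 0.040 to 0.074, all above the 12 pairs of unlike number (-0.044 to -0.002). Each library there correlated best with its own number, a hint from the data and not from the design. In the test of the difference, the replicate block used a term per number shared over both treatments. A pairing of the cell types within each treatment was therefore not tested for the difference. With the replicate block, 0 members were called in germ cells and 0 for the difference (Angpt1 BH-adjusted p = 0.0713 and 0.0620), 5 in somatic cells (Egfl7 0.0518) and 10 in saline, and the difference of Egfl7 was -0.0032. Depth limits Emcn, Tie1, Egfl7 and Angpt1 in germ cells.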
